A study of Mus musculus with 6 samples.

Results

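Glcci1, Umad1 and Gm45062 are 3 annotated genes that lie on the same strand of mouse chromosome 6 and share exons. They are 3 of the 55401 gene rows in the deposited table, and they were chosen with their knockout and wild-type values already known, so those values are given as a description without a test. The tissue was cerebral cortex of C57BL/6 mouse embryos at embryonic day 18. The 3 knockout libraries came from embryos labelled Csmd3-/- and the 3 wild-type libraries from embryos labelled WT, all from matings between Csmd3 heterozygous parents. The kind of Csmd3 allele, the sex of the embryos and whether each library is a separate embryo are not stated in the labels, so p-values measure the spread between these libraries. The libraries are bulk RNA sequencing of whole tissue, in which fewer cells of a type and less RNA per cell cannot be told apart.

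Glcci1, glucocorticoid-induced transcript 1, is named for its induction by glucocorticoid hormones, and variants near the human gene have been linked to the response to inhaled glucocorticoids in asthma. It belongs to the same protein family as Fam117a and Fam117b. Umad1 is named for its UBAP1-MVB12-associated domain, the module by which the proteins UBAP1 and MVB12 join ESCRT-I, a complex that sorts ubiquitinated membrane proteins in endosomes. A readthrough gene is an annotation for transcripts that run from one gene into the next and join exons of both. Nonsense-mediated decay is the pathway that degrades transcripts whose stop codon lies well before the last exon junction.

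Gm45062 is such a readthrough gene, and none of its exon bases is its own. In GENCODE release M21 on mm10, Umad1 (ENSMUSG00000089862.8) spans chr6:8259288-8459470, Gm45062 (ENSMUSG00000107705.1) spans chr6:8259450-8597480 and Glcci1 (ENSMUSG00000029638.17) spans chr6:8509600-8597548, all on the plus strand. Gm45062 has 1 transcript of 11 exons and 5842 bases, annotated as a target of nonsense-mediated decay. Its first 4 exons, 430 bases or 7.36% of the transcript, lie wholly in Umad1 exons. Its other 7 exons, 5412 bases or 92.6%, lie wholly in Glcci1 exons. Umad1 keeps 4588 of its 5018 exon bases outside Gm45062, and Glcci1 keeps 2344 of its 7756, among them its first exon. Umad1 and Glcci1 share no exon base with each other.

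The feature that Gm45062 shares with neither gene is therefore a splice junction. It joins the end of Umad1 exon 4 to the start of Glcci1 exon 2 across an intron of 110631 bases. The 3 sequences below are shown because a read has to cross such a junction to tell the transcripts apart at this place. Each gives 30 bases before the junction in lower case and 30 bases after it in capitals, 5′ to 3′ on the plus strand, from the GENCODE M21 transcripts Umad1-202, Gm45062-201 and Glcci1-201.
Umad1, exon 4 to exon 5: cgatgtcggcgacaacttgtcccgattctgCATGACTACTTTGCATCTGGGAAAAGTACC
Gm45062, exon 4 to exon 5: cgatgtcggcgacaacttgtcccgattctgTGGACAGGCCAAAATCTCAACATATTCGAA
Glcci1, exon 1 to exon 2: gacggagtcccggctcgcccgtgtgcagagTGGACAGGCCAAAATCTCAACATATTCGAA
The lower-case stretch of Gm45062 is identical to that of Umad1, and its capitals are identical to those of Glcci1. The upstream stretch lies at chr6:8427156-8427185 in Umad1 and Gm45062 and at chr6:8510290-8510319 in Glcci1. The downstream stretch lies at chr6:8457448-8457477 in Umad1 and at chr6:8537817-8537846 in Gm45062 and Glcci1.

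All bases of these 3 sequences are annotated as coding. Gm45062 carries 359 coding bases to its junction, as Umad1-202 does, which leaves 2 bases of an unfinished codon, whereas Glcci1-201 reaches the same acceptor after 433 coding bases with 1 base left over. The shared Glcci1 exon is thus read in different frames in the 2 transcripts. In Gm45062 only 34 of its 152 bases are coding before the annotated stop. The annotated coding sequence has 131 codons in Gm45062, 156 in Umad1-202 and 538 in Glcci1-201.

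**Figure D1:**
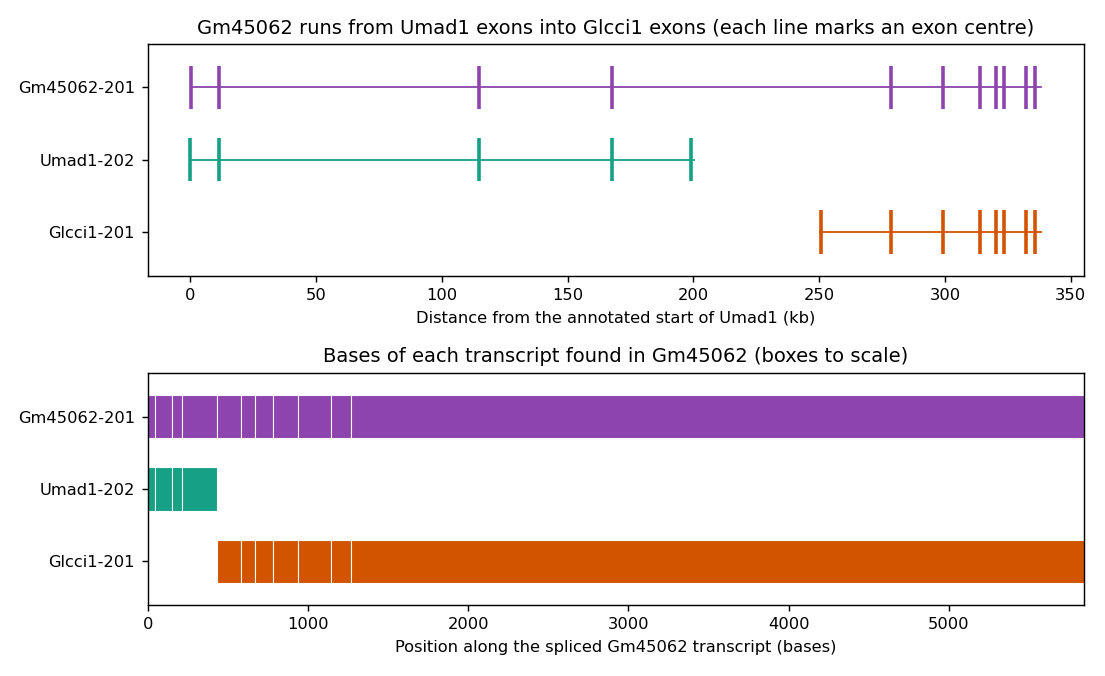
Exon layout of 1 transcript per gene. The upper panel plots exon centres against the distance from the annotated start of Umad1 in kb, and the lower panel plots, to scale, the bases of each transcript found along the spliced Gm45062 transcript of 5842 bases. Umad1 fills the first 430 bases and Glcci1 the other 5412.

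Glcci1 and Umad1 have separate promoters, and the first of each is shown because Gm45062 begins in Umad1 exon 1 and holds no exon 1 of Glcci1-201. Both sequences run from 250 bases before to 50 bases after the RefSeq gene start, on the plus strand of GRCm38.p6. The Glcci1 window is chr6:8509350-8509649 and capitals mark the letters GGCGGGGC, a GC box as bound by factors of the SP family.
Glcci1 promoter: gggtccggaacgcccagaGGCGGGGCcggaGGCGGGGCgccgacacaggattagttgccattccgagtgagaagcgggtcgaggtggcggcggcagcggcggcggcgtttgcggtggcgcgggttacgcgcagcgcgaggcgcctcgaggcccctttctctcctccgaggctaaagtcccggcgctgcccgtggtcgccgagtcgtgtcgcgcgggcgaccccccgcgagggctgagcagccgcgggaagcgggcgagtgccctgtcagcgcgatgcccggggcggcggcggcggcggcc
The Umad1 window is chr6:8259038-8259337 and capitals mark the letters CCGGAAGT, a site as bound by ETS family factors.
Umad1 promoter: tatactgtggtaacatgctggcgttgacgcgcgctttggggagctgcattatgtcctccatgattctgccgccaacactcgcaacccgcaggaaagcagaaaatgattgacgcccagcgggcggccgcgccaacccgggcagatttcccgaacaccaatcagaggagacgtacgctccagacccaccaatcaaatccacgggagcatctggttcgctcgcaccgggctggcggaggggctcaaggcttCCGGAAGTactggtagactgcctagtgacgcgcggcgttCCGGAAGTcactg
The first Glcci1 window is 76.3% G and C and the Umad1 window 60.0%, against a median of 52.7% over 32851 promoter windows of the same length. RefSeq lists a second Glcci1 start, whose window chr6:8519808-8520107 is 38.3% G and C and holds 0 matches to any motif searched. The GC box occurs at 2 places in the first Glcci1 window, and 4.19% of all windows hold it at least at 2 places on either strand. The ETS letters occur at 2 places in the Umad1 window, which 0.356% of all windows match or exceed. Both motifs were picked after the sequences had been read, and no match overlaps another. The full glucocorticoid response element, searched as AGAACA and its reverse complement 3 bases apart, occurs in neither window and in 0.0091% of all windows. The single arm AGAACA, on either strand, occurs in neither and in 19.0% of all. Gm45062 starts 162 bases after Umad1. Rpa3, which encodes the smallest subunit of the single-strand DNA binding complex RPA, starts on the opposite strand 115 bases before Umad1.

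Library totals were 54244288 to 68269607 deposited counts in the knockout libraries and 57531791 to 60716370 in the wild-type libraries. Csmd3 itself had 675, 653 and 543 counts in knockout, against 992, 765 and 867 in wild type (log2 fold change -0.59, SE 0.13, edgeR adjusted p = 0.0233), so it was lower but not absent. All 12 markers of cortical neurons and progenitors were detected, with a summed level of 5983 to 6494 CPM (counts scaled to library size) in knockout and 6183 to 6812 CPM in wild type, and 1 rose (Pax6) and 1 fell (Tubb3). Of all genes tested, 5.21% were higher in knockout and 2.53% lower. All 15 markers of meninges and mural cells rose, with sums of 784 to 1062 CPM in knockout and 81.9 to 89.5 CPM in wild type. Of 9 microglia and macrophage markers 8 rose, with sums of 107 to 135 CPM in knockout and 27.1 to 31.7 CPM in wild type. Of 6 endothelial markers 4 rose (273 to 347 CPM in knockout, 148 to 176 CPM in wild type), and of 5 markers of dividing cells 4 rose (482 to 490 CPM, against 279 to 349 CPM). Choroid plexus markers were uneven, at 9.66 to 490 CPM in knockout and 0.844 to 1.29 CPM in wild type. Their main transcript Ttr had 131, 2262 and 25057 counts in knockout, against 4, 0 and 0 in wild type, so knockout library 3 stood apart. Of 8 such markers, 5 were tested and 1 (Aqp1) rose, and Folr1 was at 0 in all wild-type libraries. None of 5 erythroid markers passed by edgeR, and DESeq2 and limma-voom called 0. At an unadjusted p under 0.05, 1 was higher. That level was not counted over all genes, so this count cannot be set against the shares above. Leaving out knockout libraries 2 and 3 leaves 1 knockout library, which still held 131 Ttr counts. The log2 fold change of Glcci1 described further on was then -1.35 (SE 0.29), against -1.29 (SE 0.16) with all libraries. The part of these markers in the values of Glcci1, Gm45062 and Umad1 was not tested.

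Gm45062 was above 0 in every knockout library and listed at 0 in every wild-type library. Its deposited counts were 1277, 893 and 1283 in knockout libraries 1, 2 and 3, against 0, 0 and 0 in the wild-type libraries. The level was 18.6 ± 4.52 CPM in knockout and 0 in wild type (SD, n = 3). The groups lay apart without overlap. Against a floor of 12 deposited counts over the wild-type group, which corresponds to about 3 sequenced fragments, the pooled knockout level of 18.4 CPM was at least 269-fold higher. The floor covers counting error only, and not reads of Gm45062 that may have been assigned to Glcci1 or Umad1.

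Glcci1 was lower in each knockout library than in any wild-type library. Its deposited counts were 1668, 1642 and 1447 in knockout libraries, against 4126, 2636 and 4130 in wild-type libraries. In CPM these were 24.3, 25.9 and 26.1 in knockout and 69.1, 45.4 and 72.1 in wild type. The knockout libraries were close to each other (25.4 ± 1.01 CPM, SD, n = 3), whereas the wild-type libraries spread widely (62.2 ± 14.6 CPM, SD, n = 3) with library 2 well under the others. On the log2 scale the knockout was lower by a fold change of -1.29 (SE 0.16), that is 0.409 of the wild-type level. It lay between -1.47 and -1.17 when any 1 library was left out.

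Umad1 differed least. Its deposited counts were 1198, 1260 and 1028 in knockout libraries, against 1340, 1252 and 1375 in wild-type libraries. In CPM these were 17.4, 19.9 and 18.5 in knockout and 22.4, 21.6 and 24.0 in wild type, so the groups again did not overlap, though they came within a few CPM of each other. The mean was 18.6 ± 1.24 CPM in knockout and 22.7 ± 1.23 CPM in wild type (SD, n = 3), with a log2 fold change of -0.28 (SE 0.10).

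In edgeR's quasi-likelihood test over 19844 genes, all 3 passed the filter on low counts, and 2 of 3 (Gm45062 and Glcci1) were past an adjusted p of 0.05, as were 7.74% of all genes tested. Knockout and wild-type ranges were separate for 3 of 3, and for 29.1% of all genes tested. The genes were picked on this contrast, so these counts carry no weight.

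**Figure D2:**
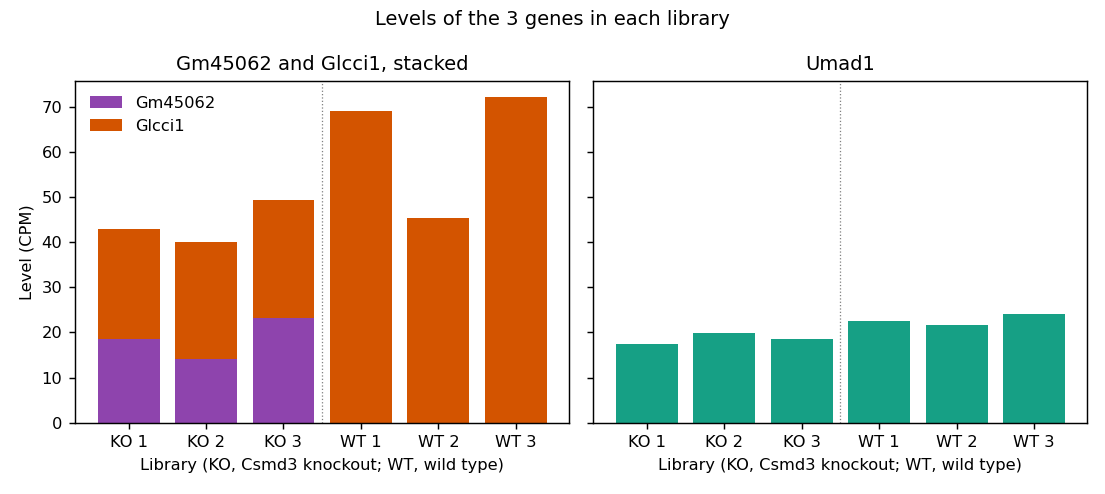
Levels in CPM of Gm45062 stacked under Glcci1 (left) and of Umad1 (right), one bar per library, knockout before wild type. The stacked knockout bars reach 42.9, 40.1 and 49.3 CPM, and the tallest of them is above wild-type library 2 at 45.4 CPM.

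A read inside the exons that Gm45062 shares with Glcci1 fits either row, so the 2 rows were also summed. Summed per library, Glcci1 and Gm45062 had 2945, 2535 and 2730 deposited counts in knockout, against 4126, 2636 and 4130 in wild type. The sums were 42.9, 40.1 and 49.3 CPM in knockout and 69.1, 45.4 and 72.1 CPM in wild type. Here the groups overlapped, because knockout library 3 was above wild-type library 2. The mean was 44.1 ± 4.71 CPM in knockout and 62.2 ± 14.6 CPM in wild type (SD, n = 3). The difference of mean log2 CPM was -0.47 (SE 0.23), where Glcci1 alone, taken the same way, had -1.26 (SE 0.22). It was -0.35 without wild-type library 3 and -0.69 without wild-type library 2.

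Gm45062 held 43.4%, 35.2% and 47.0% of that sum in knockout libraries 1, 2 and 3, a mean of 41.9 ± 6.03% (SD, n = 3). In the wild-type group its share was 0 of 10892 deposited counts, which allows up to 0.11% on counting error alone, as the reads were assigned. This share does not depend on how libraries are scaled. At even coverage 92.6% of the Gm45062 count would come from Glcci1 exons. With only that part added, the locus stood at 42.7 ± 4.39 CPM in knockout and 62.2 ± 14.6 CPM in wild type, a log2 difference of -0.52 (SE 0.23), and the groups still overlapped.

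The same reckoning for Umad1 adds 7.36% of the Gm45062 count. Umad1 then stood at 18.8, 20.9 and 20.2 CPM in knockout, against 22.4, 21.6 and 24.0 CPM in wild type. The difference of mean log2 CPM was -0.18 (SE 0.06), smaller than the -0.28 (SE 0.07) of the Umad1 row alone, and the groups stayed apart by under 1 CPM. Even coverage is an assumption that gene-level counts cannot check. For the 3 rows together the sum was 62.7 ± 4.43 CPM in knockout and 84.9 ± 15.7 CPM in wild type (SD, n = 3), a log2 difference of -0.42 (SE 0.17) with overlapping groups.

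Set against Umad1 within the same library, Glcci1 had 1.392, 1.303 and 1.408 deposited counts per Umad1 count in knockout, against 3.079, 2.105 and 3.004 in wild type, with no overlap. The sum of Glcci1 and Gm45062 had 2.458, 2.012 and 2.656 per Umad1 count in knockout, against 3.079, 2.105 and 3.004 in wild type, and these ranges overlapped. Per kb of exon, the knockout levels were 3.71 ± 0.247 CPM for Umad1, 3.28 ± 0.131 CPM for Glcci1 and 3.19 ± 0.773 CPM for Gm45062. The Umad1 libraries (3.47 to 3.97) lay above the Glcci1 libraries (3.13 to 3.37), and those of Gm45062 (2.42 to 3.96) took in all Glcci1 values. In wild type, Glcci1 led at 8.02 ± 1.88 CPM per kb, Umad1 followed at 4.52 ± 0.245 CPM per kb, and Gm45062 was listed at 0.

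Some readthrough rows were listed at 0 in some libraries and at 200 or more counts in others. The annotation holds 288 rows in the table whose transcripts are all readthrough transcripts, and 61 of them reached 200 deposited counts in at least 1 library. Of those 61, 11 (18.0%) were also listed at 0 in another library, against 66 of 13572 rows (0.486%) that reached 200 in the whole table. The 2 shares were not matched for expression level, so they cannot be set directly against each other. Of the 11, Gm45837, Gm43738, Gm20390, Gm21985 and Gm49388 reached only 208, 232, 253, 261 and 263 counts in their highest library. In 1 of the 11, Gm45062, the zeros divided the libraries by genotype. In the other 10 they did not. Of the 66 rows, 4 divided that way.

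Gm20431, a readthrough row that shares exons with Tmem189 and Ube2v1, was listed above 0 in a single library. It had 0, 0 and 1453 deposited counts in knockout, against 0, 0 and 0 in wild type. Ube2v1, which encodes a cofactor of ubiquitin conjugation and shares 1673 exon bases with it, had 6263, 5759 and 3591 counts in knockout, against 5892, 5946 and 4957 in wild type. Knockout library 3 was therefore high for the readthrough row and lowest for Ube2v1, at 64.8 CPM against a mean of 94.0 CPM in the other libraries. The sum of the 2 rows there, 91.0 CPM, lay within the 86.5 to 102 CPM of the other 5 libraries. The sum with Tmem189, which shares 694 exon bases with Gm20431, did not: it was 45.8 CPM there, against 22.4 to 27.1 CPM in the other 5. Gm26920 and Zfp82 share 2064 exon bases and were another such case: Gm26920 had 52, 853 and 79 counts in knockout and 43, 177 and 0 in wild type. Zfp82, a zinc finger gene, had 1142, 563 and 1015 in knockout and 956, 838 and 1322 in wild type, and was lowest in the library where Gm26920 was highest. The sum of Gm26920 with Zfp566, which shares 310 exon bases with it, ran from 15.7 to 27.6 CPM and was highest in that library. These rows were picked after their values were seen. Over all 22 pairs of such a row with a gene whose exons it shares, Gm45062 included, the partner was lower on average in the libraries where the row was above 0 in 17 pairs and higher in 5. The sum of row and partner was lower there in 8 pairs and higher in 14. The libraries were split by the row's own count, so adding that count raises the sum where the row is above 0. Pairs that share a row are not independent, and the Gm45062 values were known beforehand. These counts of pairs therefore cannot show whether reads moved between row and partner, which was not tested.

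**Figure D3:**
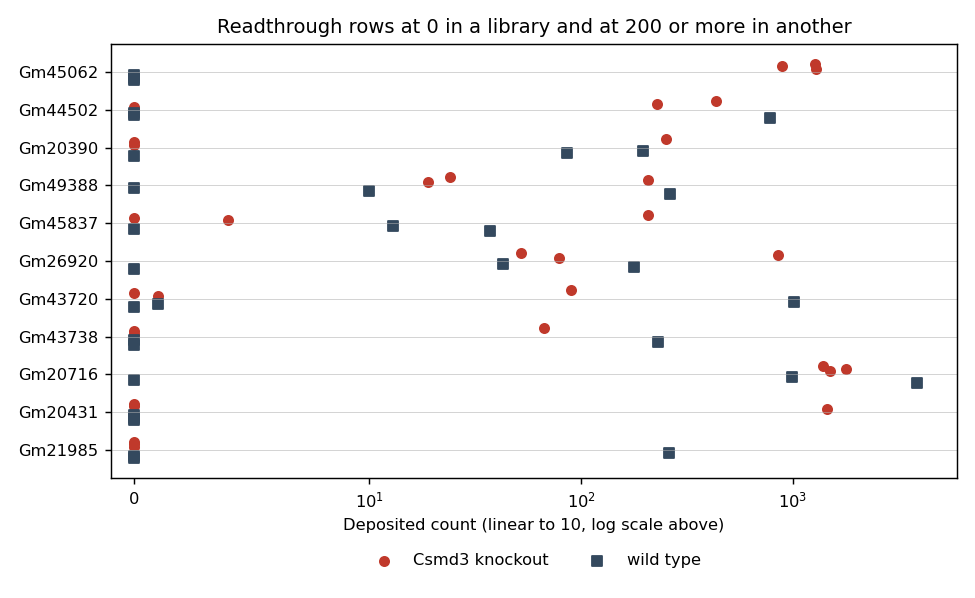
Deposited counts of the 11 readthrough rows that were at 0 in 1 library and at 200 or more in another. Points are libraries (circles, knockout; squares, wild type) on an axis that is linear to 10 and logarithmic above. Gm45062 at the top is the row whose zeros are the 3 wild-type libraries.

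Of the 288 readthrough rows 109 were tested, 3 were higher in knockout and 0 were lower by edgeR, with a median log2 fold change of -0.10 against 0.00 over all genes tested, of which 5.21% were higher and 2.53% lower. At an unadjusted p under 0.05, 6 were higher and 9 lower. That level was not counted over all genes, so these counts cannot be set against the shares above. DESeq2 called 6 higher and 3 lower, and limma-voom 2 higher and 0 lower. Over the 19844 genes DESeq2 called 1473 higher and 928 lower, and limma-voom 1159 higher and 690 lower. Beside Gm45062, the 3 were Gm43302 (88, 98 and 70 counts in knockout, against 8, 4 and 10 in wild type) and Gm49395 (40, 70 and 77 counts, against 11, 2 and 0). Both had far fewer counts than Gm45062, and they are named after their values were seen.

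At a minimum of 200 counts, set after the data were seen, Gm45062 was the 1 row at 0 in all wild-type libraries and at or above the minimum in each knockout library, and 0 rows had the reverse pattern. With a minimum of 100 counts in place of 200, Bmp4, which encodes a secreted growth factor, and Col13a1, which encodes a transmembrane collagen, joined it. They share no exon base with another gene on their strand. In the reverse direction 1 row was found, 1 of 2 rows named Gm6740 (ENSMUSG00000115785.1), with 0, 0 and 0 counts in knockout and 114, 117 and 149 in wild type.

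Among 847 pairs of tested genes that share exon bases on 1 strand, 338 had log2 fold changes of opposite sign. The pairs in which both genes passed the threshold in opposite directions included Gm45062 with Glcci1 and the 2 rows named Gm6740. By the smaller of the 2 changes, Gm45062 with Glcci1 came after 2 other pairs. The Gm6740 pair (-10.04 and 1.58) and Il31ra with Gm3226 (1.39 and -1.76, neither past the threshold) came before it. After it came Gm42957 with Itga10 (-1.53 and 0.82) and Pcdhga8 with Pcdhga9 (0.81 and -0.83). In 6 pairs both genes passed in the same direction.

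Other annotated genes overlap the 3 on the opposite strand, and the labels do not say whether the counting used read strand. A430035B10Rik starts 830 bases inside Glcci1 and shares 36 exon bases with it. Its deposited counts were 85, 67 and 90 in knockout, against 120, 93 and 145 in wild type, with a log2 fold change of -0.65 (SE 0.29, adjusted p = 0.225). In CPM its groups overlapped, at 1.24, 1.06 and 1.62 in knockout, against 2.01, 1.60 and 2.53 in wild type. The pseudogene Gm16042 lies with all 1247 bases inside the last exon of Glcci1 and Gm45062 and was listed at 0 in all 6 libraries. Gm16043, which shares 129 exon bases with Umad1, had at most 3 counts in any library.

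The genes around the locus were taken by position and not by value. Within 1 Mb of Glcci1 lie 24 other annotated rows, of which 11 were tested. Of these, 2 fell and 0 rose by edgeR, against 2.53% and 5.21% of all genes tested, and the median log2 fold change was -0.25. At an unadjusted p under 0.05, 4 were lower and 0 higher. That level was not counted over all genes, so these counts cannot be set against the shares above. DESeq2 and limma-voom each called 2 lower and 0 higher. Over the 19844 genes DESeq2 called 928 lower and 1473 higher, and limma-voom 690 lower and 1159 higher.

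Nxph1, which encodes neurexophilin 1, a secreted ligand of alpha-neurexins, had 1095, 974 and 910 deposited counts in knockout, against 1707, 1316 and 1274 in wild type. All 3 knockout libraries were under all 3 wild-type libraries. The means were 15.9 ± 0.513 CPM in knockout and 24.5 ± 3.55 CPM in wild type (SD, n = 3), a log2 fold change of -0.62 (SE 0.12, edgeR adjusted p = 0.0162). The call was lost without knockout library 1 (adjusted p = 0.0627), 2 (0.0667) or 3 (0.0686).

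Asns, which encodes asparagine synthetase, had 1533, 1366 and 1128 deposited counts in knockout, against 1796, 1881 and 1496 in wild type. In CPM its groups lay apart, at 21.4 ± 0.992 in knockout and 29.5 ± 3.19 in wild type (SD, n = 3), with a log2 fold change of -0.46 (SE 0.11, edgeR adjusted p = 0.0329). The call was lost with the replicate number as a block (adjusted p = 0.0604). It was also lost without knockout library 1 (0.0823), 2 (0.104) or 3 (0.139) and without wild-type library 1 (0.0954) or 2 (0.104).

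The nearest neighbours on either side did not pass. Rpa3 stood at 14.1 ± 0.641 CPM in knockout and 12.5 ± 1.54 CPM in wild type (log2 fold change 0.17, SE 0.13, edgeR adjusted p = 0.516). Mios, which encodes a subunit of the GATOR2 complex upstream of mTORC1, stood at 35.9 ± 3.05 CPM in knockout and 36.9 ± 5.02 CPM in wild type (log2 fold change -0.04, SE 0.12, edgeR adjusted p = 0.885). On the other side Ica1, which encodes a BAR domain protein of secretory granules, stood at 22.5 ± 0.886 CPM in knockout and 26.7 ± 2.44 CPM in wild type (log2 fold change -0.25, SE 0.10, edgeR adjusted p = 0.203). The next gene on that side is Nxph1.

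**Figure D4:**
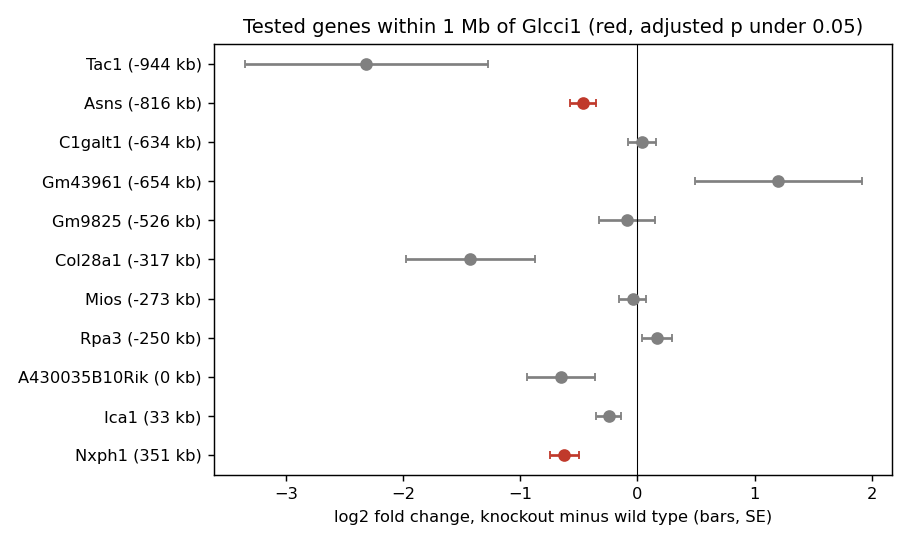
The log2 fold change (knockout minus wild type, bars show SE) of the 11 tested genes within 1 Mb of Glcci1, in genomic order from top to bottom, with the distance to Glcci1 in kb. Nxph1 and Asns, in red, were past the threshold at -0.62 and -0.46.

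Genes of the glucocorticoid response were followed because of the name of Glcci1. Of 30 listed, 28 were tested, 2 rose and 0 fell by edgeR, where 5.21% of all genes tested were higher and 2.53% lower. The median log2 fold change was -0.01, against 0.00 over all genes tested. At an unadjusted p under 0.05, 6 were higher and 1 lower. That level was not counted over all genes, so these counts cannot be set against the shares above. DESeq2 called 5 higher and 1 lower, and limma-voom 3 higher and 1 lower. Over the 19844 genes DESeq2 called 1473 higher and 928 lower, and limma-voom 1159 higher and 690 lower. The 2 that rose were Hif3a, a relative of the hypoxia-inducible factors, at 21.7 ± 0.443 CPM in knockout and 6.05 ± 1.18 CPM in wild type (log2 fold change 1.84, SE 0.16, edgeR adjusted p = 0.000174), and the sulfotransferase gene Sult1a1, at 4.06 ± 0.438 CPM in knockout and 0.955 ± 0.394 CPM in wild type (2.09, SE 0.30, edgeR adjusted p = 0.00365). Without knockout libraries 2 and 3, which leaves 1 knockout library, the log2 fold change of Sult1a1 was 2.09 (SE 0.45).

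Among the standard targets of the hormone receptor, neither Fkbp5 nor Tsc22d3 passed. Sgk1, named after its values were seen, fell just short of the threshold. It had 1464, 1381 and 1094 deposited counts in knockout, against 1691, 1854 and 1414 in wild type. Its log2 fold change was -0.43 (SE 0.12, edgeR adjusted p = 0.0542). DESeq2 and limma-voom called it lower (adjusted p = 0.00966 and 0.0336). Without knockout library 3 its edgeR adjusted p was 0.194. Cdkn1c and Angptl4 of the same list, also named after their values were seen, were higher and short of the threshold. Their log2 fold changes were 0.38 (SE 0.11, edgeR adjusted p = 0.0621) and 0.84 (SE 0.25, edgeR adjusted p = 0.0805). Fkbp5, which encodes a chaperone partner of the receptor and is induced by it, stood at 71.5 ± 6.70 CPM in knockout and 73.6 ± 7.44 CPM in wild type (log2 fold change -0.04, SE 0.10, edgeR adjusted p = 0.861). Tsc22d3, which encodes the leucine zipper protein GILZ, stood at 35.5 ± 2.02 CPM in knockout and 40.3 ± 1.79 CPM in wild type (log2 fold change -0.18, SE 0.09, edgeR adjusted p = 0.258). The receptor gene Nr3c1 lay at the threshold, at 14.3 ± 0.779 CPM in knockout and 9.97 ± 1.43 CPM in wild type (0.52, SE 0.14, edgeR adjusted p = 0.0501). Over the alternatives with at least 2 libraries per group, its adjusted p ran from 0.0102 by DESeq2 to 0.179 by edgeR without knockout library 3. With knockout library 1 as the only knockout library, its log2 fold change was 0.47 (SE 0.23).

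Of the relatives of Glcci1, Fam117a rose, at 5.05 ± 0.465 CPM in knockout and 2.94 ± 0.495 CPM in wild type (log2 fold change 0.78, SE 0.20, edgeR adjusted p = 0.0407). That call was lost with the replicate number as a block (adjusted p = 0.0664) and without any 1 library (0.0589 to 0.136). Fam117b stood at 170 ± 3.38 CPM in knockout and 170 ± 8.87 CPM in wild type (0.00, SE 0.07, adjusted p = 0.993). None of Rpa1, Rpa2 and Rpa3 passed with all libraries. Without wild-type library 1, Rpa1 was called lower (log2 fold change -0.46, edgeR adjusted p = 0.0258, against -0.26 and 0.432 with all libraries).

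ESCRT genes were followed because of the domain that gives Umad1 its name. All 29 listed were tested, and 0 passed by edgeR in either direction, where 7.74% of all genes tested did. The median log2 fold change was 0.01. At an unadjusted p under 0.05, 3 were higher and 5 lower. That level was not counted over all genes, so these counts cannot be set against the share above. DESeq2 and limma-voom called 0 of them. Over the 19844 genes DESeq2 called 1473 higher and 928 lower, and limma-voom 1159 higher and 690 lower. Without wild-type library 3, 4 of the ESCRT genes were called lower, as were 956 genes of the whole table. Tsg101, the core subunit of ESCRT-I, stood at 118 ± 2.38 CPM in knockout and 120 ± 12.6 CPM in wild type (log2 fold change -0.03, SE 0.08, edgeR adjusted p = 0.898). Ubap1 (0.11, SE 0.15), Mvb12a (-0.01, SE 0.12) and Mvb12b (-0.19, SE 0.07) encode the ESCRT-I subunits named in the domain, and none passed (edgeR adjusted p = 0.724, 0.986 and 0.154).

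The genes whose levels ran most alike across the 6 libraries were ranked by Pearson's r of log2 CPM among 13716 genes. The libraries fall into 2 groups, so a high r mostly repeats the split by genotype, and r is given without a p. For Glcci1 the 5 most alike were Srrm4os (0.999), 1500035N22Rik (0.995), Cdkl2 (0.995), 5730409E04Rik (0.988) and Ficd (0.987). Srrm4os, a long RNA transcribed opposite to the neuronal splicing regulator gene Srrm4, had 124 to 146 deposited counts in knockout and 403 to 833 in wild type. The 5 most opposite to Glcci1 were Ucp2, Tet2, Lgals9, Nadsyn1 and Idh2, between -0.997 and -0.994.

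Gm45062 ran most alike with Mrc1, Apod, Fkbp14, Col26a1 and Sorbs3, all at 0.998 or 0.999. Mrc1 is a marker of border macrophages, with 1348 to 1781 deposited counts in knockout and 42 to 50 in wild type. Cntn6, Syt4, Cpne8, Myc and C9orf72 were the most opposite to Gm45062, between -0.995 and -0.994. For Umad1 the most alike were Thumpd1, Adgrb3, Gm14137, Pak7 and Pomk, between 0.984 and 0.994, and the most opposite were Unc93b1, Gm43672, Col23a1, Acadl and Bmf, between -0.996 and -0.989. Between the members themselves r was -0.945 for Glcci1 with Gm45062, 0.935 for Glcci1 with Umad1 and -0.902 for Gm45062 with Umad1.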

How the data were processed

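The authors deposited 1 table of unscaled gene counts, all whole numbers, with 55401 rows and a column for each of 6 libraries. They were treated as deposited estimated counts, since low values pile up at 4 (1298 genes in wild-type library 1, against 492 at 3 and 318 at 5), as if 1 fragment added about 4. They needed no rounding. The submitters' processing notes list the aligner HISAT2 2.0.5, StringTie 1.3.4 for transcript estimation, Trim Galore 0.4.4, FastQC 0.11.9 and mm10. Which program wrote the counts, with which annotation, and how reads in shared exons were assigned is not stated there.

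Identifiers were matched to GENCODE M21, which named 55141 rows. After filterByExpr and TMM scaling, 19844 genes were tested with the robust quasi-likelihood method of edgeR 4.0.16 (R 4.3.3), with Benjamini-Hochberg adjustment and a threshold of 0.05. Other tools are named where their p is given. A positive log2 fold change means higher in knockout, and its SE is its size over the root of the F statistic. For sums, log2 CPM was averaged per group and SE taken from the group variances. CPM uses TMM library sizes. DESeq2 1.42.0 and limma 3.58.1 served as alternatives. The edgeR step was tested on simulated counts with the same dispersion for every gene. They held no steps of about 4 and no rows that jump from 0 to high counts within a group. That test therefore does not cover those features of the deposited counts.

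The members, lists and tests were chosen with earlier results of these data known. The rule for naming genes took the 3 members and Csmd3. It added neighbours within 1 Mb that overlapped a member, passed the threshold or were the nearest 2 on each side. From each list it took members past the threshold, up to 6, and 10 fixed genes. It also took the 5 genes most alike and most opposite to each member (mean log2 CPM of at least 1, prior count of 2) and the 5 exon-sharing pairs with the largest opposite changes. Alternatives were other scalings, tools and filters, counts divided by 4, the replicate number as a block and libraries left out. The count of readthrough rows at 0 in some libraries was added after seeing the data. Same-numbered libraries did not deviate together, so the numbers were not taken as pairs. Counting precision is that of a count divided by 4.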

Additional observations from a re-analysis of the deposited data

How the results depend on the processing

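The log2 fold change of Glcci1 (-1.47 to -1.17 over 15 alternatives) and the sums of Glcci1 with Gm45062 (-0.69 to -0.35 over 11) and of all 3 genes (-0.58 to -0.32 over 10) kept their sign and moved by less than the spread between libraries. The mean share of Gm45062 in knockout lay between 39.3% and 45.2% with libraries left out. The fitted log2 fold change of Gm45062, 13.13, depends on how each tool treats a group in which every count is 0. It was 12.52 by DESeq2, 11.05 by limma-voom and 11.13 with counts divided by 4, and 12.97 to 13.29 with 1 library left out. Umad1 (-0.33 to -0.24 with 1 library left out) moved to -0.18 with its exon share of Gm45062 added, an alternative chosen after seeing the data.

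Counts of calls moved more, and the cause was not tested. They are not given for the fit without knockout libraries 2 and 3, which leaves 1 knockout library. The number of genes called higher, 1033, became 686 with the replicate block, 262 without knockout libraries 2 and 3, and 472 to 1402 with 1 library left out. The number called lower, 503, became 928 by DESeq2, 255 with the replicate block, 43 without knockout libraries 2 and 3, and 137 to 956 with 1 library left out. The 2 called neighbours became 1 with the replicate block, 1 in a window of 0.5 Mb, and 0 to 2 with 1 library left out. The glucocorticoid list, with 2 calls, had 6 by DESeq2 and 4 by limma-voom. It had 4 with no filter on low counts, 4 with a filter of 1 CPM in 3 libraries and 4 with counts divided by 4. With 1 library left out it had 2 to 4. The FAM117 and RPA list, with 1 call, had 0 with the replicate block and 0 to 1 with 1 library left out. There the 1 call was Rpa1 as lower without wild-type library 1, not Fam117a. The ESCRT list had 0 to 4 calls with 1 library left out. Same-numbered libraries correlated at 0.0283, -0.00263 and 0.00163 in their deviations from group means, so the replicate number gives no pairing.

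The floor of 12 counts for Gm45062 in wild type covers counting error and not how reads in shared exons were assigned. Gene-level counts hold no junction reads, so the transcripts of the locus cannot be told apart by them.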
